A study of Mus musculus with 10 samples.

Results

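Polycomb proteins keep developmental genes silent through histone marks, and 10 genes of this system were followed in leukemic mouse spleens labelled as Sirt1 deleted or as controls. They were chosen by symbol as genes linked to Polycomb repressive complexes 1 and 2 (PRC1 and PRC2). Some of them are known as tumor suppressors in T cell acute lymphoblastic leukemia (T-ALL). All 10 were found among the 16865 genes listed, and all 10 passed the filter on low values. The genes are Ezh2, Ezh1, Suz12, Eed, Jarid2 and Phf19 of PRC2, Ring1, Rnf2 and Bmi1 of PRC1, and Asxl1. By its known role Asxl1 belongs to neither complex: it is the cofactor of the deubiquitinase Bap1, which removes the PRC1 mark.

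RNA came from spleens of 10 mice that had been irradiated below the lethal dose and injected into a vein with T-ALL cells carrying a conditional Sirt1 allele. The mice are labelled C57BL/6, and the spleens went through lysis of red cells. Control mice (n = 5) received corn oil alone. Sirt1 deleted mice (n = 5) received tamoxifen in corn oil, 3 mg per mouse, into the peritoneum. Both groups therefore carried the conditional allele, and no group had tamoxifen without the deletion, so the drug and the loss of Sirt1 cannot be told apart. The age of the mice, the recombinase that tamoxifen acts on and the leukemia given to each recipient are not given in the sources used here. Every p-value therefore measures only how these spleens varied, which may be within 1 leukemia. The spleens also held host cells. In bulk RNA, fewer cells of a type and less RNA per cell cannot be told apart.

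PRC2 places methyl groups on lysine of the histone H3 tail through Ezh2 or Ezh1, which need Suz12 and Eed to be active. PRC1 attaches ubiquitin to histone H2A through Rnf2 (RING1B) or Ring1 (RING1A), each paired with a PCGF protein such as Bmi1. In T-ALL, loss-of-function lesions of PRC2 core genes are a known class of mutation, and in normal lymphocytes Ezh2 is the form that goes with cell division.

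Values are counts that the authors normalized between libraries. Each library summed to 33.6 M to 34.8 M, and its depth, read from the steps between low values, was about 21.2 M to 44.1 M reads (M, 1e6). The member with the fewest reads in any library was Ezh1, with about 539 and a counting error of 4.31%. Sirt1 itself stood at 1126 to 1348 normalized counts in the controls and 710 to 1071 in the Sirt1 deleted group, with no overlap. Sirt1 RNA in deleted spleens was at 73.8% of control, and which exons the allele removes is not given in the sources used here. Its log2 difference was -0.44 (exact permutation p = 0.00794, which no split of these 10 libraries could lower). All 12 T-lineage markers were above 0 in every library. Their summed level was 228457 to 254324 in controls and 226583 to 260329 in the deleted group. The 14 macrophage markers summed to 11500 to 16630 and 6979 to 10752, the 11 erythroid markers to 441898 to 561325 and 220008 to 486372, the 10 B cell markers to 274 to 361 and 328 to 520, and the 10 neutrophil markers to 1688 to 4413 and 2157 to 8813. None of these marker lists summed to 0 in any library. Exact permutation p-values of the log2 sums were 0.00794 for macrophage, 0.0317 for B cell and 0.0476 for erythroid markers. They were 0.0873 for neutrophil and 0.4365 for T-lineage markers, none adjusted over the lists. The part of red cell precursors in the results was not tested.

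Another property of the libraries separated the groups, as the macrophage sum did. The slope of each library's log2 deviations on log2 transcript length, with GC content in the same fit, was 0.00122 to 0.115 in controls and -0.183 to -0.00922 in the Sirt1 deleted group. Long transcripts thus read lower in the deleted group, and this slope separated the groups (exact permutation p = 0.00794). The difference of each member is therefore given as deposited and after every library was corrected for transcript length and GC content. Other genes are given as deposited, and after correction only where stated. The correction also takes away any true difference that follows length or GC content.

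Of the 10 genes, 5 differed between the groups, and neither methyltransferase of PRC2 was among them. Rnf2, Suz12, Jarid2 and Asxl1 fell in the Sirt1 deleted group, by 0.41, 0.36, 0.27 and 0.20 on the log2 scale, and Ring1 rose by 0.22. Bmi1 (-0.31, adjusted p = 0.0507) and Ezh1 (-0.14, adjusted p = 0.0521) lay just short of the threshold of 0.05. Ezh2, Eed and Phf19 had differences of -0.07, -0.03 and -0.01 and did not pass. The 5 calls of 10 stand beside 32.0% called among all 13567 genes tested, where 14.5% were higher and 17.5% lower. Groups did not overlap for 3 members (Ezh1, Ring1 and Asxl1), beside 16.5% of all genes. The median difference of the 10 members was -0.17, beside 0.00097 for all genes tested. Single libraries carried part of the count: it was 3 without control library 1, 2 without control library 2 and 3 without Sirt1 deleted library 2. Calls among all 13567 genes fell as well in these fits, from 4344 to 2335, 2200 and 2711. After correction 1 member was called, Rnf2, beside 14.4% of genes (8.29% higher and 6.07% lower), and the median of the members was -0.02. With the length slope in the limma model, 0 of 10 members passed (0 at an unadjusted p under 0.05), and so did 0 of all genes (578 unadjusted). In that model Ring1 stood at 0.15 and Ezh1 at -0.13, while Rnf2, Suz12, Jarid2 and Asxl1 stood between -0.02 and 0.14. Without the 3 libraries of steepest slope (control 1, control 2 and Sirt1 deleted 5), 0 members passed (4 unadjusted), as did 3 genes in all (0.0221%). Ring1 (0.23) and Ezh1 (-0.14) were as large there as in all 10 libraries, Rnf2 was at -0.27, Suz12 at -0.17, Jarid2 at -0.15 and Asxl1 at -0.13. Adding 1 joint mean level of the macrophage and neutrophil markers to the model left 5 members called, beside 29.5% of all genes. These lists moved in opposite directions, with median differences of -0.63 and 0.87, so their joint mean does not adjust for either list. Adding the mean level of the B cell markers left 0 members (4 unadjusted) and 1 gene in all (0.00737%). The differences in that model were -0.31 for Rnf2, -0.25 for Suz12, -0.25 for Jarid2, 0.20 for Ring1 and -0.18 for Asxl1. A lost call in these settings does not show that a difference was absent.

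**Figure D1:**
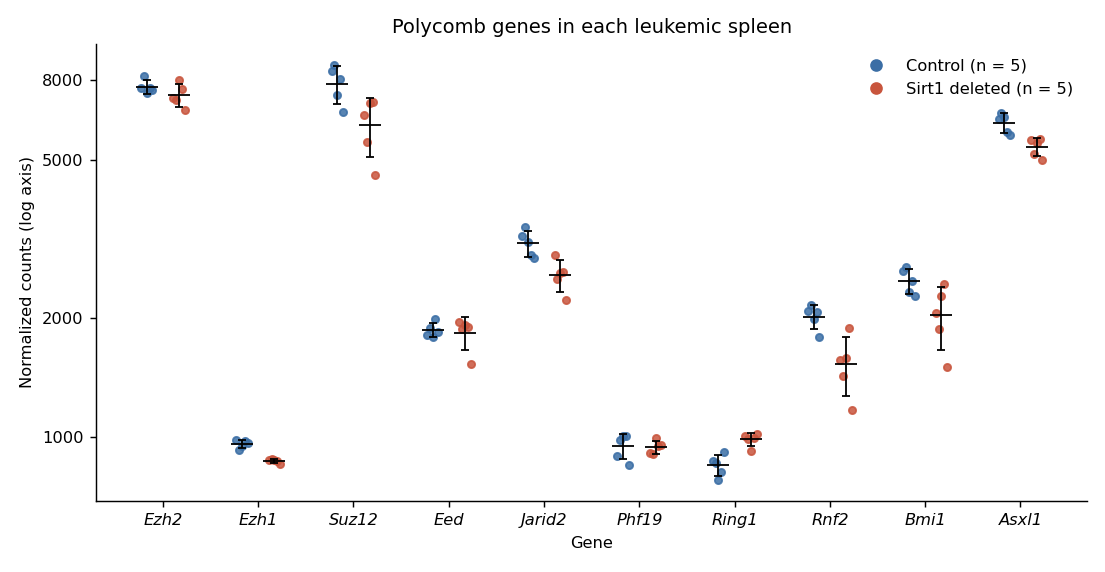
Normalized counts of the 10 Polycomb genes in each spleen on a log axis, with control libraries in blue and Sirt1 deleted libraries in red (n = 5 each) and black bars for the mean ± SD. Ring1 is higher in all 5 deleted libraries, Ezh1 and Asxl1 are lower in all 5, and the groups of every other member overlap.

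Ezh2 (GRCm38, chr6:47530139-47595341, minus strand), the main methyltransferase of PRC2 in dividing cells, was the most abundant member per length, at 2756 normalized counts per kilobase in controls. Its control libraries 1 to 5 held 7641, 8186, 7383, 7642 and 7549 normalized counts. Its Sirt1 deleted libraries 1 to 5 held 7210, 7127, 7981, 7557 and 6695. The groups overlapped, with 3 deleted libraries below every control. The means were 7680 ± 302 and 7314 ± 483 (SD, n = 5), and the deleted group stood at 95.1% of control with a 95% interval of 87.6% to 103%. The corrected difference was -0.02 (interval -0.101 to 0.0576).

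Ezh1 (chr11:101191115-101226463, minus strand), the alternative methyltransferase with weaker activity, was the least abundant per length, at 228 normalized counts per kilobase. Controls held 978, 922, 945, 976 and 964 normalized counts, and deleted libraries 875, 878, 873, 869 and 851. Every deleted library lay below every control, and the spread inside each group was small (SD 23.4 and 10.6). The log2 difference was -0.14 (SE 0.0509, adjusted p = 0.0521). It passed with a minimum value of 50 (adjusted p = 0.0401), with equal totals (0.0454) and with array weights (0.0388). It was -0.03 after correction (adjusted p = 0.714), but -0.13 with the slope in the model and -0.14 without the 3 libraries of steepest slope (adjusted p = 0.232). Its alternatives spanned adjusted p-values of 0.0388 to 0.999.

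The balance of both methyltransferases was read as a ratio inside each library, which does not depend on the scaling of the library. The log2 ratio of Ezh2 to Ezh1 was 3.00 ± 0.0816 in controls and 3.07 ± 0.0862 in the deleted group (SD, n = 5), a difference of 0.07 (exact permutation p = 0.214, two-sided; 0.214 adjusted over 2 ratios). Control library 2 was the one control above 3, at 3.15. Without it the difference was 0.10 and the exact p was 0.0238. Without the 3 libraries of steepest slope it was 0.13 (exact p = 0.0571). After correction the difference was 0.01 (exact permutation p = 0.905). Per kilobase, Ezh2 was 12.1 times Ezh1 in controls and 12.7 times in the deleted group.

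Suz12 (chr11:79993106-80034123, plus strand), the scaffold of PRC2, fell. Controls held 8424, 8728, 7308, 8027 and 6616 normalized counts. Deleted libraries held 6519, 5573, 6974, 7038 and 4589, and 3 of them lay below every control. The mean went from 7821 ± 858 to 6139 ± 1045 (SD, n = 5), a log2 difference of -0.36 (SE 0.114, adjusted p = 0.0308). The call ended without control library 1 (adjusted p = 0.0768), 2 (0.0813) or 4 (0.0632) and without deleted library 2 (0.0755), and after correction (-0.17, adjusted p = 0.107, range 0.00761 to 0.999 over its alternatives).

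Eed (chr7:89954654-89980983, minus strand), the subunit that reads the methyl mark and stimulates the enzyme, held 1812, 1883, 1791, 1987 and 1843 normalized counts in controls. Deleted libraries 1 to 4 held 1949, 1873, 1912 and 1895, inside the control range, and library 5 held 1527. The log2 difference was -0.03 (interval -0.18 to 0.12, adjusted p = 0.765). After correction it was -0.07 (adjusted p = 0.564). In the same complex, Suz12 and Eed thus gave different calls, and the difference between them was not tested.

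The promoters of Ezh2 and Suz12 are shown because PRC2 genes are known targets of E2F factors, which drive genes of the cell cycle, while these members gave different calls. The windows run from 250 bases before to 50 after the start (RefSeq, GRCm38.p6), and capitals mark matches on either strand to TTTGGCGC or TTTCCCGC (forms of the E2F motif), to CCAAT (bound by NF-Y), to TGACGT (part of the CRE) or to GGAAGT (ETS core):
Ezh2, chr6:47594981-47595280, minus strand: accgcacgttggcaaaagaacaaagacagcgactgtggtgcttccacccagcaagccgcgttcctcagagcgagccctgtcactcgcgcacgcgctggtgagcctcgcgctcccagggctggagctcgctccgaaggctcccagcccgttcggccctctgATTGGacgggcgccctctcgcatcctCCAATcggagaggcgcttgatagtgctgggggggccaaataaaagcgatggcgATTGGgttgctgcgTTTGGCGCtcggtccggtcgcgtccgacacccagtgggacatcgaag
Suz12, chr11:79992856-79993155, plus strand: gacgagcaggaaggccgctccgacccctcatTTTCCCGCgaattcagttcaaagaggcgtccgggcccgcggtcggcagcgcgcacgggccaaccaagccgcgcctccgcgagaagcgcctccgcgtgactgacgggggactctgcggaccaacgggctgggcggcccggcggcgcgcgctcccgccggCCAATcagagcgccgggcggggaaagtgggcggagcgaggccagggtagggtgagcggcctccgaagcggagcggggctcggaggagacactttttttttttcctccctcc
TTTGGCGC was found for Ezh2 alone among the members, and in 0.515% of 32817 windows of the same length. TTTCCCGC was found for Suz12 and Phf19, and in 1.07% of windows. CCAAT was found for Ezh2, Suz12, Eed and Jarid2, and in 37.4% of windows. Of GGGCGG, the GC box, which is left in lower case, 7 members had a match, beside 35.6% of windows. These matches are letters in a window, not binding sites.

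Proliferation genes, many of them E2F-driven, were read beside Ezh2. Of 22 listed and tested, 5 rose, 2 fell and 15 did not pass, a share of 31.8% beside 32.0% of all genes, with a median of -0.03. After correction 3 were called higher and 1 lower, 18.2% beside 14.4% of all genes, with a median of 0.01. Cdk1, the mitotic kinase, rose by 0.23 (adjusted p = 0.0159), and Birc5 (survivin) by 0.25 (adjusted p = 0.0203), while cyclin E2 (Ccne2) fell by 0.76 (adjusted p = 0.0244). After correction Cdk1 was at 0.39 (adjusted p = 0.00853), Birc5 at 0.32 (adjusted p = 0.0136) and Ccne2 at -0.65 (adjusted p = 0.0345). The summed level of all 22 genes was 265266 to 285846 in controls and 257623 to 285874 in the deleted group, which overlap. Genes whose log2 levels followed Ezh2 most closely over the 10 libraries were Gpr35 (Pearson 0.977), Fgfr1op2 (0.977) and Mospd1 (0.966), picked as the 3 highest of all tested genes.

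Jarid2 and Phf19 are accessory subunits that help PRC2 find chromatin, Phf19 as one of the Polycomb-like proteins. Jarid2 (chr13:44729474-44921643, plus strand) held 3211, 3391, 3107, 2875 and 2833 normalized counts in controls and 2879, 2500, 2597, 2608 and 2215 in the deleted group, where 4 of 5 libraries lay below every control. It fell by 0.27 on the log2 scale (SE 0.0734, adjusted p = 0.0174), from 3083 ± 233 to 2560 ± 239. Its longest transcript has 5997 bases, and after correction the difference was -0.01 (interval -0.0952 to 0.079, adjusted p = 0.911, range 0.00585 to 0.999 over its alternatives). Without control library 2 the adjusted p was 0.0529. Phf19 (chr2:34893757-34914026, minus strand) held 896, 983, 1003, 1003 and 848 normalized counts in controls and 910, 901, 994, 945 and 952 in the deleted group. The deleted libraries of Phf19 lay wholly inside the control range, at 99.5% of control (interval 90.3% to 110%).

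Rnf2 (chr1:151458004-151500955, minus strand), the main ubiquitin ligase of PRC1, showed the largest fall among the members. Controls held 2075, 2148, 1982, 2062 and 1782 normalized counts. Deleted libraries held 1567, 1425, 1584, 1878 and 1170. Of these, 4 lay below every control, and library 4 lay inside the control range. The mean went from 2010 ± 141 to 1525 ± 258 (SD, n = 5), to 75.1% of control (log2 difference -0.41, SE 0.104, adjusted p = 0.0135). Rnf2 was called whichever single library was left out. After correction the difference was -0.31 (SE 0.0751, adjusted p = 0.0191, range 0.00404 to 0.999 over its alternatives). With the slope in the model it was -0.0026, and without the 3 libraries of steepest slope it was -0.27 (adjusted p = 0.12). The 3′ end of Rnf2 overlaps that of Trmt1l on the opposite strand, and the use of strand in counting is not stated. Trmt1l was at 988 ± 53.7 and 1092 ± 127 (adjusted p = 0.188).

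Ring1 (chr17:34020792-34024680, minus strand), the other ligase of PRC1, moved the other way. Controls held 866, 857, 777, 815 and 916 normalized counts, and deleted libraries 1001, 988, 920, 993 and 1016. Every deleted library lay above every control, though library 3 exceeded the highest control by little. Ring1 rose by 0.22 (SE 0.0614, adjusted p = 0.0194), from 846 ± 52.9 to 984 ± 36.9, and was called whichever single library was left out. Its transcript is the shortest of the members (2034 bases) and the richest in G and C (60.7%). After correction the difference was 0.0016 (interval -0.113 to 0.117, adjusted p = 0.987, range 0.00803 to 0.999 over its alternatives). It was 0.23 without the 3 libraries of steepest slope (adjusted p = 0.127), 0.15 with the slope in the model and 0.20 with B cell markers in it.

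The log2 ratio of Rnf2 to Ring1 was 1.26, 1.32, 1.35, 1.34 and 0.959 in control libraries 1 to 5. It was 0.646, 0.527, 0.782, 0.918 and 0.204 in Sirt1 deleted libraries 1 to 5, so the groups did not overlap. The difference was -0.63 (exact permutation p = 0.00794, two-sided; 0.0159 adjusted over 2 ratios). Per kilobase, Rnf2 went from 1.51 times Ring1 to 0.974 times. After correction the difference was -0.32 (exact permutation p = 0.0159; 0.0317 adjusted), with control ratios of 0.94 to 1.22 and deleted ratios of 0.595 to 0.947, which overlap. Without the 3 libraries of steepest length slope, the exact permutation p was 0.0286, not adjusted over the 2 ratios. The ratio was not fitted with covariates. Rnf2 has the lowest GC content of the members (39.5%) and Ring1 the highest, so the ratio joins the ends of that range.

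**Figure D2:**
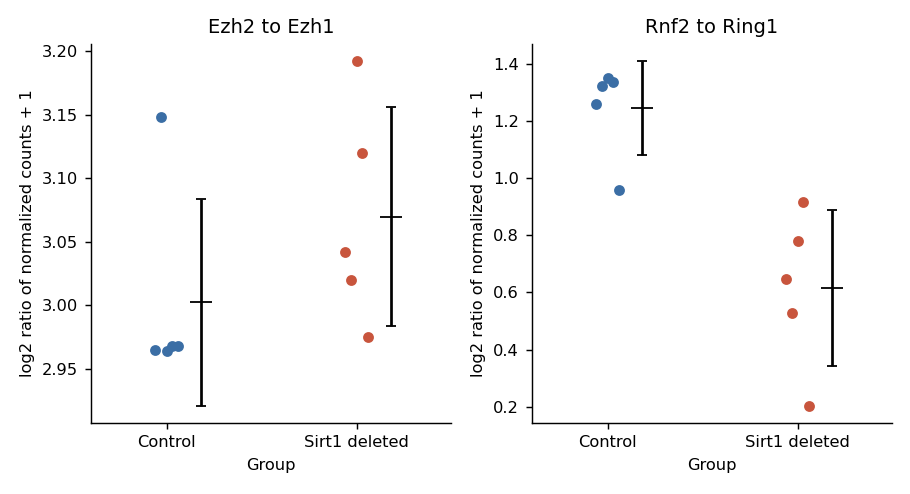
The log2 ratio of Ezh2 to Ezh1 (left) and of Rnf2 to Ring1 (right) in each library, computed on normalized counts + 1, with black bars for the mean ± SD (n = 5 each). The axes do not start at 0. The Rnf2 to Ring1 ratio is 0.959 to 1.35 in controls and 0.204 to 0.918 in deleted libraries, while the Ezh2 to Ezh1 ratios overlap.

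The promoters of both ligase genes are shown because these genes moved in opposite directions. Build, window and capitals are as above:
Rnf2, chr1:151500942-151501241, minus strand: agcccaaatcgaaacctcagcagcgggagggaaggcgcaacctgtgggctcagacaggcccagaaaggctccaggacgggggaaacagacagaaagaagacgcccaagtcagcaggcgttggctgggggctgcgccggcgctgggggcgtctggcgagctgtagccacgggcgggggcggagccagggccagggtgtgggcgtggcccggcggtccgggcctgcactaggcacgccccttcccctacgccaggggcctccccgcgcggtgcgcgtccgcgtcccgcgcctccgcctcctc
Ring1, chr17:34024631-34024930, minus strand: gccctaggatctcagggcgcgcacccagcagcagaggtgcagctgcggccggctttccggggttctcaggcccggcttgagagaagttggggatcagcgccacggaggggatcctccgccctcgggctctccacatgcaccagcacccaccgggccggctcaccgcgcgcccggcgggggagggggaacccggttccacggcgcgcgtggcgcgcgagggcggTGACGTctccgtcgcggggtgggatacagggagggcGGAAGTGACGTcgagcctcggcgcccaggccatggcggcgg
Ring1 had a pair of TGACGT matches and a GGAAGT match that overlaps the second of them. TGACGT was found for 2 members (Phf19 and Ring1) and in 7.51% of windows, and GGAAGT for 3 members (Jarid2, Ring1 and Asxl1) and in 23.8%. Rnf2 had none of the capitalised motifs in this window. Both windows are rich in G and C (72.7% for Rnf2 and 74.0% for Ring1), so the promoters do not share the contrast in GC content of the transcripts.

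Bmi1 (chr2:18677018-18686629, plus strand), the PCGF partner of the ligases and a known regulator of stem cell renewal, held 2629, 2680, 2324, 2479 and 2269 normalized counts in controls. Deleted libraries held 2050, 1875, 2275, 2440 and 1496. Of these, 3 lay below every control, while libraries 3 and 4 lay inside the control range. The log2 difference was -0.31 (SE 0.111, adjusted p = 0.0507), at 80.9% of control with an interval of 68.5% to 95.5%. It lay past the threshold under 8 of 24 alternatives, among them a pseudocount of 5 (adjusted p = 0.0499) and the fit without deleted library 4 (0.0204). After correction it was -0.18 (adjusted p = 0.106).

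Asxl1 (chr2:153345829-153404007, plus strand), a gene often mutated in myeloid malignancy, held 6365, 6608, 6451, 5901 and 5780 normalized counts in controls and 5614, 5204, 5544, 5657 and 5015 in the deleted group. Every deleted library lay below every control. Asxl1 fell by 0.20 (SE 0.0558, adjusted p = 0.0183), to 86.9% of control. Its transcript is the longest of the members (6981 bases), and after correction the difference was 0.07 (adjusted p = 0.177, range 0.00799 to 0.999 over its alternatives). Its start overlaps 2500004C02Rik on the opposite strand, which was at 169 ± 27.9 and 211 ± 11.1 (log2 difference 0.33, adjusted p = 0.045). The call of Asxl1 also ended without control library 1 (adjusted p = 0.0514), control library 2 (0.0562) or deleted library 2 (0.0504).

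**Figure D3:**
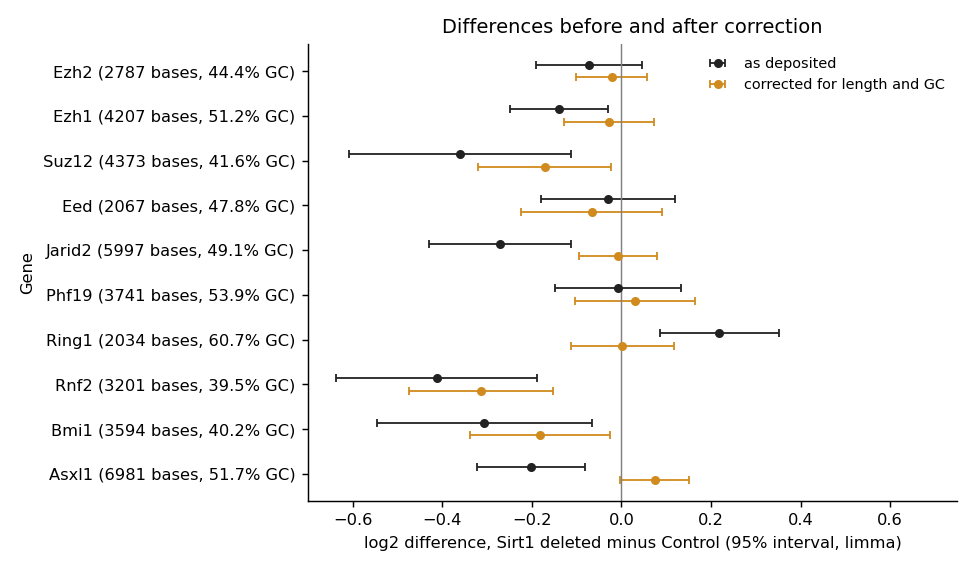
Log2 difference of each member, Sirt1 deleted minus Control, as deposited (black) and corrected for transcript length and GC content (orange), with 95% intervals from limma. Transcript length and GC content stand beside each gene. After correction Rnf2 is the one member called (-0.31), and Jarid2, Ring1 and Asxl1 lie near 0.

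Length and GC content of the transcripts went with some of the differences and not with others. The 3 members with the longest transcripts, Asxl1, Jarid2 and Suz12, all fell, and Ring1, with the shortest, rose. Eed, nearly as short (2067 bases), was at -0.03, Phf19 (3741 bases) at -0.01, and Rnf2, with the lowest difference, has a transcript of 3201 bases. The 3 lowest in GC content, Rnf2 (39.5%), Bmi1 (40.2%) and Suz12 (41.6%), had the 3 lowest differences as deposited. They also had the 3 lowest after correction. Intervals of the corrected differences left out 0 for these members alone (-0.475 to -0.152, -0.339 to -0.0247 and -0.319 to -0.0226), of which Rnf2 passed the adjusted threshold.

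Libraries differed among themselves in the same direction. Sirt1 deleted library 5, with the steepest slope (-0.183), was the lowest of all 10 libraries for 8 of the 10 members, and the highest for Ring1. Control library 2 (slope 0.11) was the highest for 6 members. The part of the slope in the differences of single members cannot be told apart from the group.

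**Figure D4:**
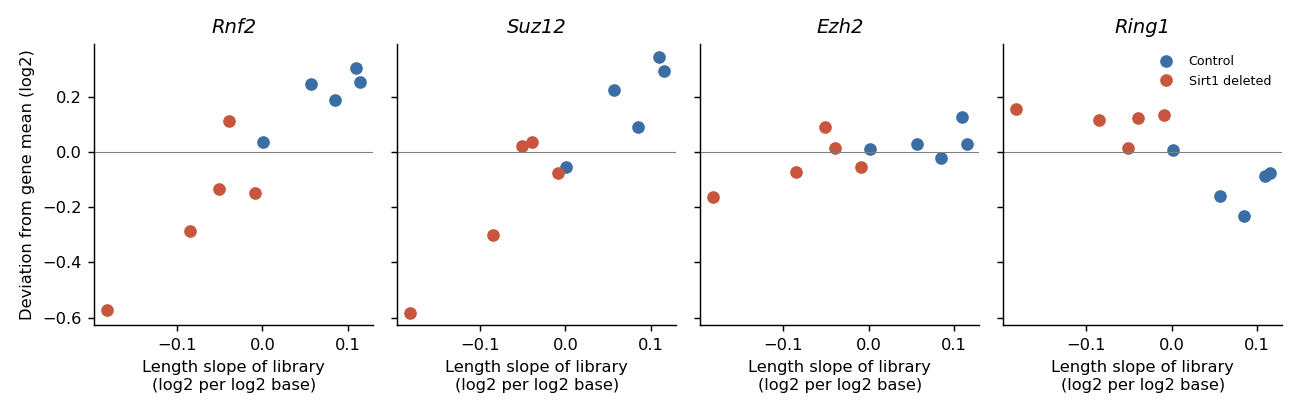
Deviation of Rnf2, Suz12, Ezh2 and Ring1 from the mean of each gene (log2) against the length slope of each library (log2 per log2 base), with controls in blue and Sirt1 deleted libraries in red. Rnf2 and Suz12 are lowest in deleted library 5 at a slope of -0.183, and Ring1 is highest there.

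Per kilobase of the longest transcript, the order of levels in controls was Ezh2 (2756 normalized counts per kilobase), Suz12 (1788), Eed (901), Asxl1 (891), Bmi1 (689), Rnf2 (628), Jarid2 (514), Ring1 (416), Phf19 (253) and Ezh1 (228). Eed and Asxl1 differed by less than their spread. In the deleted group Ring1 (484) and Rnf2 (476) stood level, and Jarid2 was at 427. Shorter transcripts are annotated for most members, so these levels assume the longest one.

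Other Polycomb genes were read by role from a list of 46, of which 43 were tested. Of these, 13 fell, 5 rose and 25 did not pass, a share of 41.9% beside 32.0% of all genes, with a median of -0.11. After correction 2 were lower and 7 higher, 20.9% beside 14.4%, with a median of 0.01. None of the 43 was called with the slope covariate (1 unadjusted) or without the 3 steepest libraries (16 unadjusted).

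Among PRC2 partners, the histone chaperones Rbbp4 (-0.01) and Rbbp7 (-0.11) did not pass, and after correction Rbbp4 was called higher (0.17, adjusted p = 0.0185). Phf1, a Polycomb-like protein related to Phf19, rose from 510 ± 60.4 to 693 ± 78.4 (log2 difference 0.44, adjusted p = 0.00932) without overlap, and was still called after correction (0.30). Lcor, whose locus also encodes the PRC2 cofactor PALI1, showed the largest fall of the list, from 196 ± 40.2 to 97.1 ± 20.0 (-1.001, adjusted p = 0.00797). Its controls held 250, 226, 180, 159 and 164 normalized counts and its deleted libraries 130, 89.0, 97.3, 91.8 and 77.2, with no overlap. After correction Lcor stood at -0.77 (adjusted p = 0.00796). Values per gene cannot tell PALI1 transcripts from others. Aebp2, a cofactor that stabilizes PRC2, fell by 0.22 (adjusted p = 0.0203) without overlap, and was at 0.08 after correction.

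PCGF genes set the kind of PRC1. Of the 5 tested besides Bmi1, Pcgf3 fell and Pcgf1 rose, 40% beside 32.0% of all genes. After correction 1 of them was called (20%, beside 14.4%). Pcgf3 held 1184, 1213, 1108, 1126 and 842 normalized counts in controls and 745, 622, 670, 869 and 418 in the deleted group. Its log2 difference was -0.75 (SE 0.164, adjusted p = 0.00934), and -0.39 after correction (adjusted p = 0.0298). Pcgf1 rose by 0.35 (adjusted p = 0.0327), and its transcript of 918 bases gave 0.10 after correction. In canonical PRC1, the CBX proteins read the mark of PRC2. Of 10 genes tested for canonical PRC1, 3 were called (30%, beside 32.0% of all genes). Cbx7 rose from 843 ± 46.4 to 1046 ± 143 (0.30, adjusted p = 0.0212) without overlap. After correction Cbx7 (0.26) and Cbx6 (0.21) were called higher, while Cbx6 had been at 0.05 as deposited. Phc3, a polyhomeotic subunit, fell by 0.42 (adjusted p = 0.0106) and was at -0.02 after correction.

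Variant PRC1 lacks CBX proteins. Of its 11 tested genes 4 fell (Bcor, Bcorl1, Usp7 and Mga) and 0 rose, a share of 36.4% near the 32.0% of all genes. Mga had the smallest p (-0.47, adjusted p = 0.0146), and 0 were called lower after correction. Fbrsl1 was at 0.20 (adjusted p = 0.0647) and called higher after correction (0.21). Of the 8 other genes tested for the Bap1 complex, 4 fell and 1 rose (62.5%, beside 32.0% of all genes), and after correction 1 was called (12.5%, beside 14.4%). Asxl2, the close relative of Asxl1, fell by 0.42 (adjusted p = 0.00923) without overlap and stood at -0.01 after correction, with a transcript of 11934 bases. Mbd6 rose by 0.26 (adjusted p = 0.0119) without overlap and was still called after correction (0.18). Kdm6a, the X-linked demethylase that takes off the PRC2 mark, fell from 1991 ± 185 to 1505 ± 183 (-0.41, adjusted p = 0.0101) without overlap, and was at -0.11 after correction (adjusted p = 0.114).

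**Figure D5:**
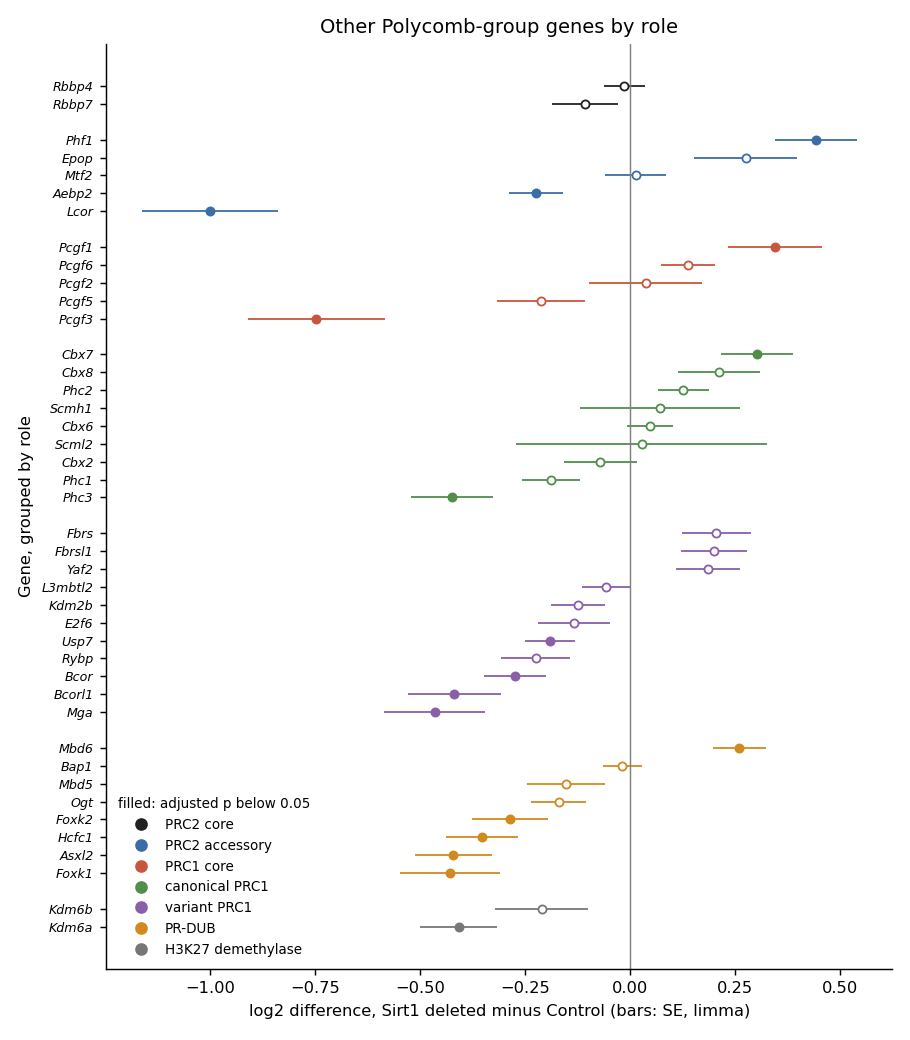
Log2 difference, Sirt1 deleted minus Control, of other Polycomb genes grouped by role and coloured by it, with bars for the SE from limma; filled points passed an adjusted p of 0.05. Lcor (-1.001) and Pcgf3 (-0.75) lie lowest and Phf1 (0.44) highest.

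Classical targets of Polycomb silencing were mostly too low to test. Of 46 listed genes (the HOX clusters, cell cycle inhibitors and lineage factors), 20 were in the table and 7 passed the filter. Cdkn2a, the Ink4a/Arf tumor suppressor gene and a textbook PRC1 target, rose from 206 ± 28.0 to 273 ± 29.9 (0.41, adjusted p = 0.0174). Its controls held 193, 190, 180, 215 and 250 normalized counts and its deleted libraries 228, 261, 281, 306 and 289, so 4 of 5 deleted libraries lay above every control. With a transcript of 895 bases it was at 0.03 after correction (adjusted p = 0.885). Tbx21 (0.36, adjusted p = 0.178) and Hoxb4 (0.20, adjusted p = 0.317) did not pass, nor did the 4 other tested targets.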

How the data were processed

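RNA of 10 leukemic spleens was measured by strand-specific sequencing. Per the submitters' processing notes, the authors used kallisto 0.44.0 and DESeq (no version given) on mm10. The deposited signal is 1 table of normalized counts, not whole, for 16865 symbols, and 0 columns were left out. The annotation and the step from transcripts to genes are not given in the sources used here.

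A gene was tested with a value of at least 10 in at least 5 libraries (13567 genes). Tests used limma 3.58.1 (trend) in R 4.3.3 on log2(value + 1), two-sided, with Benjamini-Hochberg adjustment over all genes tested, so differences are on that scale. Ratios, Sirt1, the length slope and the marker sums were tested by exact permutation of the 10 libraries. For the correction, each library's deviations from the gene means were fitted by natural splines (5 degrees of freedom each) of GC content and log2 length, jointly, and the fit was taken off. Length came from the longest protein-coding GENCODE M21 transcript, or the longest of all where none codes, and was known for 13304 tested genes. Depth is each total divided by the step between its low values, and with that step tuned, 35.4% to 48.2% of non-zero values in a library were whole reads (within 0.1), and 19.5% to 24.6% of those over 200 normalized counts. Count models were therefore not used.

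All 10 members were named, with the wider Polycomb genes that were called without overlap or had the smallest p in their role, and 3 of each other list; 1 gene of the wider list is counted but not reported here. Pcgf1, Cbx6, Fbrsl1 and Rbbp4, and the names behind counts, were added after their values were seen. The members and lists were chosen with earlier results of these data known. Alternatives were pseudocounts of 0.5 and 5, no filter or a minimum of 50, quantile normalization, TMM, equal totals, array weights, robust limma, the correction, covariates and left-out libraries. The steps were run on simulated data with independent noise for each gene, and those outcomes are not reported here. Plots used matplotlib 3.10.9.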

Additional observations from a re-analysis of the deposited data

Results flagged for a closer look

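In the Sirt1 deleted group, library 5 lay apart from the others for Eed, at 1527 normalized counts against 1873 for the next lowest. Library 3 lay apart for Ring1, at 920 against 988 for the next. Both gaps exceed the 95% critical value of Dixon's test for 5 values (0.71). Chance flags about 1 in 20 groups, and 20 groups were examined. Without library 5 the difference of Eed was 0.03.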

How the results depend on the processing

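No paired analysis was possible because the labels number the libraries in 1 run and match no control with a deleted sample. The count of member calls (5), of wider Polycomb calls (18) and of all calls (4344) became 1, 9 and 1910 with the length and GC correction. It became 0, 0 and 0 once the length slope entered the model, 0, 0 and 3 without the 3 libraries of steepest slope, and 0, 0 and 1 once B cell markers did. Sirt1 stood at -0.0333 (limma p = 0.786), -0.27 (exact permutation p = 0.0857) and -0.29 (limma p = 0.0506) in those last 3 settings. With the length and GC correction it stood at -0.26 (exact permutation p = 0.00794), and the groups did not overlap. Leaving out each library gave 2 to 6 member calls, 12 to 23 wider calls and 2200 to 4712 calls in all, and an Ezh2 to Ezh1 difference of 0.0365 to 0.103. The Rnf2 to Ring1 difference kept its direction in the 14 alternatives run for it (-0.707 to -0.315). Its exact permutation p was 0.00794 to 0.0286 there, not adjusted over the 2 ratios. The ratio was not fitted with the slope, B cell or macrophage and neutrophil covariates. With the length slope in the model, Rnf2 alone was at -0.0026 and Ring1 alone at 0.15. Outside the correction, the slope and B cell covariates and the fit without the 3 steepest libraries, 2 to 7 members were called. Calls over all genes in those settings ran from 2200 (without control library 2) to 5325 (array weights), both of 13567 tested.

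Some directions reversed. With the length slope in the model Ezh2 was at 0.0482, Suz12 0.137, Eed 0.163, Jarid2 0.026, Phf19 0.0339 and Bmi1 0.131. With the correction Asxl1 was at 0.0739 and Phf19 at 0.0306. Phf19 was also at 0.00242 with TMM and 0.0137 with quantile normalization, and Eed at 0.0148 with quantile normalization, 0.00196 with array weights, 0.0267 without the 3 steepest libraries and 0.0248 with B cell markers. Leaving out each library moved Eed between -0.0536 and 0.0342 and Phf19 between -0.0457 and 0.0148. Neither was called under any alternative run. The cause was not tested. Counting error for the members was at most 4.31%.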
